A study of Homo sapiens with 5 samples.

Results

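The genes described here act in mitosis: the cyclins and kinases that start it, the spindle checkpoint, the kinetochore, the motors and bundling proteins of the spindle, and the proteins that fold chromosomes. They were followed in HepG2, a human line from a hepatic carcinoma. Cells were depleted of LSD2, a histone H3 lysine 4 demethylase encoded by KDM1B, by transfection of 3 small interfering RNAs (siRNAs) of different sequence, with 1 expression array per siRNA. Control cells received an siRNA to GL3, a sequence of firefly luciferase that has no human counterpart, and were read on 2 arrays that the labels call technical replicates, so the control counted as 1 sample. Every culture was kept in 25 mM glucose with 10% serum, transfected when near 50% confluent and harvested after 3 to 4 days. Members were the genes of a list of 60 that had a probe set assigned to a single gene symbol. There were 59 such genes of 12893 measured, read by 106 probe sets. INCENP, a scaffold of the chromosomal passenger complex, was not analysed here.

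Entry into mitosis is driven by CDK1 bound to cyclin A or B, after CDC25 phosphatases remove its inhibitory phosphates. Chromosomes condense, their kinetochores attach to spindle microtubules, and a checkpoint holds back the anaphase-promoting complex (APC/C) until attachment is complete. Many of these genes are transcribed mainly in G2 and M phase, so their transcripts are scarce in cells that do not divide. Cultured hepatic carcinoma cells divide, and the transcripts of such genes are commonly read as a measure of proliferation. In RNA from a whole culture, fewer cells in mitosis and less RNA per cell cannot be told apart.

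In the deposited table each probe set was centred on its own median over the 5 arrays, so the values hold no level and only differences between arrays can be read. All values are on the log2 scale, with base 2 assumed. Differences are taken against the control mean, that is the mean of both control arrays, except where another array is given as the reference. A gene's value is the mean of its probe sets. Identity of the cells could not be checked against hepatocyte markers, because a level near 0 cannot be seen in centred values. Bacterial poly-A transcripts added before labelling set control array 2 and siRNA 3 apart from the other arrays, with medians of -1.45 and -1.39 over 24 probe sets against control array 1. The same medians were 0.04 for siRNA 1 and 0.07 for siRNA 2. Each siRNA was therefore also compared with each control array alone. Each siRNA was 1 array, so the effect of an siRNA and that of its array cannot be told apart.

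Promoter sequences are shown first, because many genes of this kind carry the same pair of short elements next to their start sites. These are CCAAT boxes and the cell cycle genes homology region, whose core is TTTGAA. RefSeq promoter windows on GRCh38.p14, from 250 bases before to 50 bases after a start, were found for 52 of the 59 members. Either strand was searched, and in 2 member windows the 2 motifs shared letters. CCAAT was in a window of 41 of the 52 members, or 78.8%, against 43.2% of the 10421 measured genes with a window. TTTGAA was in 38 members, or 73.1%, against 14.8% of genes. Both were in 1 window for 29 members, or 55.8%, against 6.1% of genes.

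The 150 bases before the start are printed for 8 members, 1 from each of 8 roles. Each is the member lowest under siRNA 2 among those with 1 listed window and both motifs in these bases. Capitals mark CCAAT or its reverse ATTGG, and TTTGAA or its reverse TTCAAA. The sequences run 5′ to 3′ on the gene's strand and come from chr15:59104996-59105145 (plus strand), chr16:23678739-23678888 (plus strand), chr1:43358831-43358980 (plus strand), chr2:26785906-26786055 (plus strand), chr1:37692366-37692515 (plus strand), chrX:70289954-70290103 (plus strand), chr15:90994536-90994685 (minus strand) and chr12:6493952-6494101 (plus strand), in the order shown:
CCNB2: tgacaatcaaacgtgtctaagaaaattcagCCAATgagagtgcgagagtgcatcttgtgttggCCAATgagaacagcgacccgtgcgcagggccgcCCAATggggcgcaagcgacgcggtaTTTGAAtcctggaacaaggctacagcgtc
PLK1: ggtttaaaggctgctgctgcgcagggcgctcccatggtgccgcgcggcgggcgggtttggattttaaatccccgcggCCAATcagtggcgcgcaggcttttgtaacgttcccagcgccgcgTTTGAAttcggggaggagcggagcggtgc
CDC20: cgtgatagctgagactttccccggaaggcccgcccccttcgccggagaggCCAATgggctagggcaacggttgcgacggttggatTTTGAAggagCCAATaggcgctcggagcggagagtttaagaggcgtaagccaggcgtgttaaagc
CENPA: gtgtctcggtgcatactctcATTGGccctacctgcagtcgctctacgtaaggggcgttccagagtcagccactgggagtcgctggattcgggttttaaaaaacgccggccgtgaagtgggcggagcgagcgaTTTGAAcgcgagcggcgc
CDCA8: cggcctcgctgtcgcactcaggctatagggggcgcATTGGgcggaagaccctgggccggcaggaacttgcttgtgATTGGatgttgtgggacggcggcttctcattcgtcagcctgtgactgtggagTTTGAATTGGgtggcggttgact
KIF4A: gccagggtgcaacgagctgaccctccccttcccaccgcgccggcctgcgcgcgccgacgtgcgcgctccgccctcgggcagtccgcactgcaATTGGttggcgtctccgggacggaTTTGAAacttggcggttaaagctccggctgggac
PRC1: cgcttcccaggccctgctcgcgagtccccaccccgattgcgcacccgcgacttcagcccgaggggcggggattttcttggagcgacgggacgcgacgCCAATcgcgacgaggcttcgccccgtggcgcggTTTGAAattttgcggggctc
NCAPD2: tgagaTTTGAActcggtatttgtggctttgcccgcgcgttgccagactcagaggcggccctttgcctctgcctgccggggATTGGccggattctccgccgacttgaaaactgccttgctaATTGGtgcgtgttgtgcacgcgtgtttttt

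CCNB2 had 3 CCAAT boxes, and its TTTGAA began 29 bases before the start. PLK1 had its TTTGAA at the same distance with 1 CCAAT box, and PRC1 had it 20 bases before the start. In CDCA8 the TTTGAA shared its last letter with a reversed CCAAT box. NCAPD2 had TTTGAA 145 bases before the start. The 3 members with a window but neither motif were CENPE, KIF2C and MELK, named after their values were seen. The same stretch of MELK, from chr9:36572745-36572894 (plus strand), is shown for contrast:
MELK: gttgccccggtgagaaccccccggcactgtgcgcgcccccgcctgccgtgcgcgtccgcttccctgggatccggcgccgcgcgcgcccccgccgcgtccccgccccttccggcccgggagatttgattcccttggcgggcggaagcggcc

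Under siRNA 2 the members with TTTGAA had a median difference of -1.35 and the 14 without it -1.53. The members with CCAAT had -1.36 and the 11 without it -1.57. Over all genes with a window the medians were -0.01 with TTTGAA and 0.03 without it. These medians are descriptions with no test, and a match describes the letters only.

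The targeted transcript was lower under each siRNA. KDM1B read 1.56 and 0.78 in control arrays 1 and 2, and -1.43, -0.56 and -0.22 with siRNAs 1, 2 and 3, as a mean of 2 probe sets. Its differences from the control were -2.60, -1.73 and -1.38, and the 3 knockdown arrays did not overlap the control arrays. The 2 probe sets were below both control arrays under each siRNA but differed widely in size. The probe set 227021_at had -3.95, -2.94 and -1.82 under siRNAs 1, 2 and 3, where 1553150_at had -1.25, -0.52 and -0.95. With siRNA 2, 1553150_at read 0.00, against 0.95 and 0.08 in control arrays 1 and 2. On that probe set the siRNA 2 difference was smaller than the gap between the control arrays. The mean difference of the gene was -1.90 ± 0.63 (SD, n = 3 siRNAs), with a limma standard error of 0.59, an unadjusted p of 0.0236 by limma and an adjusted p = 0.9999 over all genes. The probe set 1553150_at alone had a mean difference of -0.90.

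Under siRNA 2 nearly the whole mitotic programme was lower than on either control array, and under siRNAs 1 and 3 it lay near the control. The median difference over the 59 members was -1.36 under siRNA 2, or 39.0% of the control, with quartiles of -1.58 and -1.11. It was 0.17 under siRNA 1 and -0.13 under siRNA 3. Over all genes the medians were -0.04, 0.03 and 0.01 under siRNAs 1, 2 and 3. Below both control arrays under siRNA 2 were 58 of 59 members, where 37.1% of all genes were. At least 2-fold below both were 43 members, where 5.11% of all genes were. No member was 2-fold below both control arrays under siRNA 1, where 4.03% of genes were, or under siRNA 3, where 3.8% of genes were. For 58 members siRNA 2 was the lowest of the 5 arrays, as it was for 24% of genes. For 36 members it was 2-fold or more below each of the other 4 arrays, as for 2.9% of genes. The members made up 6.53% of the 659 genes that were 2-fold below both control arrays under siRNA 2.

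**Figure D1:**
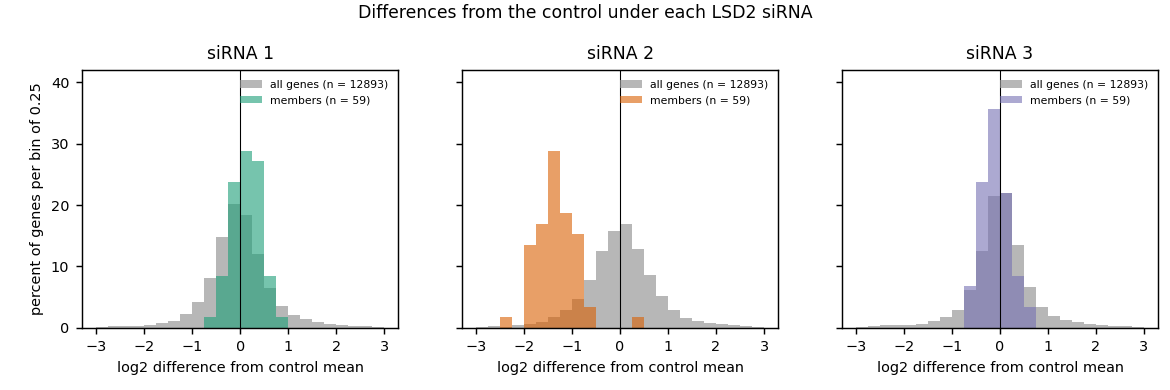
Share of genes, in percent per bin of 0.25, by log2 difference from the mean of the 2 control arrays, for all 12893 genes (grey) and the 59 members (coloured), with a panel for each LSD2 siRNA. Differences beyond 3 in either direction are not drawn. Under siRNA 2 the members lie around -1.36, while under siRNAs 1 and 3 they lie near 0, around 0.17 and -0.13.

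The depth of the KDM1B loss did not order the siRNAs as the mitotic genes did. KDM1B was lowest under siRNA 1, at -2.60, where the members had a median of 0.17. It stood at -1.73 under siRNA 2, where they had -1.36. Under siRNA 3 KDM1B stood at -1.38 and the members at -0.13. The order of siRNAs 2 and 3 depended on the KDM1B probe set, since 227021_at was lower under siRNA 2 and 1553150_at was lower under siRNA 3, while both were lowest under siRNA 1.

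Against control array 1, which shares its poly-A level with siRNAs 1 and 2, the members' medians were 0.09, -1.36 and -0.10 under siRNAs 1, 2 and 3. Against control array 2, which shares its level with siRNA 3, they were 0.14, -1.34 and -0.14. The siRNA 2 value thus differed little between the control arrays, which all 3 comparisons share. Control array 2 differed from control array 1 by a median of -0.01 over the members, and by 0.20 without regard to sign. For 57 of 59 members the siRNA 2 difference was larger than the gap between the control arrays, as for 56.9% of all genes. The 2 exceptions, PLK4 and ASPM, had control arrays over 1 apart. The siRNA 1 difference was no larger than that gap in 25 of 59 members and the siRNA 3 difference in 28. The share of all genes was not taken for siRNAs 1 and 3, so these 2 counts cannot set the members apart from other genes. Compared directly, siRNA 2 was below siRNA 1 by a median of -1.53 over the members and below siRNA 3 by -1.32. With 1 array per siRNA these values have no test.

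Over the 3 siRNAs together limma called no member. With the control as 1 sample, 0 of 59 members and 0 of 12893 genes (0% of all) passed at 0.05 after adjustment, where limma's smallest adjusted p = 0.9999. Without adjustment, 0 members and 218 genes (1.69% of all) had a limma p under 0.05. The median of the members' mean differences was -0.46, where that of all genes was -0.02, and without siRNA 2 it was -0.01. The spread in this test was that between siRNAs, with 2 residual degrees of freedom, so a value carried by 1 siRNA widens it. The labels do not say whether the arrays came from separate cultures, so the p-values cover the spread among these arrays alone, part of which may be technical.

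**Figure D2:**
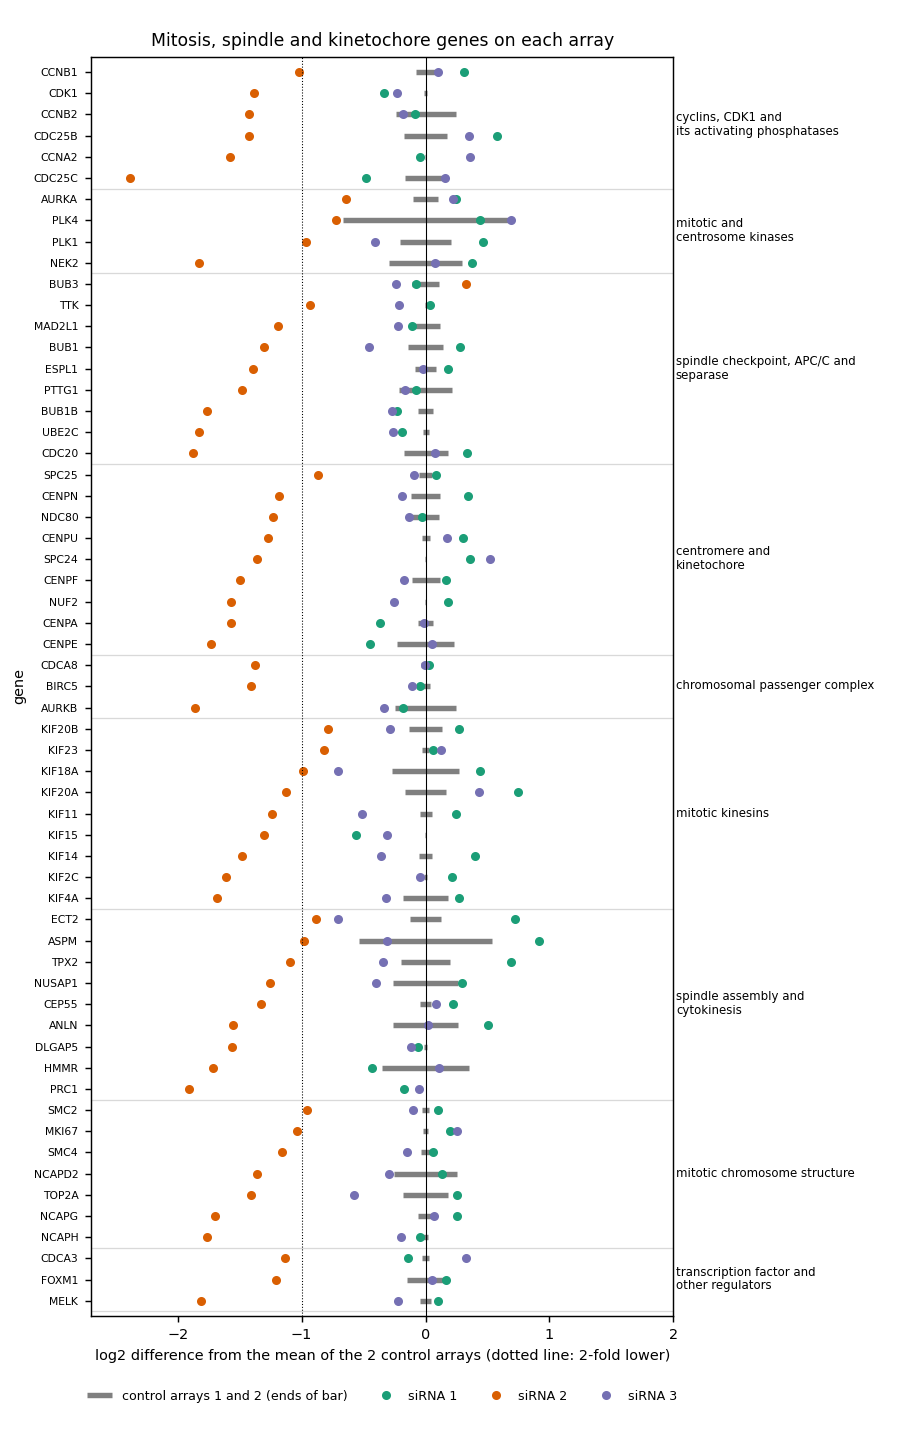
Log2 difference of each of the 59 members from the mean of the 2 control arrays, by role. Grey bars end at the 2 control arrays, points are the arrays of siRNAs 1, 2 and 3, and the dotted line marks 2-fold lower. The siRNA 2 points lie left of the control bar for every member except BUB3.

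Cyclins, CDK1 and its phosphatases were all lower under siRNA 2. The 6 members had a median of -1.42 there, against -0.06 under siRNA 1 and 0.13 under siRNA 3, and 5 of 6 were 2-fold below both control arrays. CDC25C, a phosphatase that activates CDK1 at the onset of mitosis, read 0.03 and 0.36 in control arrays 1 and 2, and -0.28, -2.19 and 0.36 with siRNAs 1, 2 and 3. Its siRNA 2 array stood at 19.1% of the control, the lowest of all members. CCNA2, the cyclin of S and G2 phase, read 0.03 and 0.02 in control arrays 1 and 2, and -0.02, -1.55 and 0.38 with siRNAs 1, 2 and 3. The siRNA 2 array alone was far below the control arrays. CDK1 itself read 0.08 and 0.10 in control arrays 1 and 2, and -0.25, -1.30 and -0.14 with siRNAs 1, 2 and 3, so the 3 knockdown arrays were below both control arrays and siRNA 2 was the farthest. CCNB1, encoding the main cyclin partner of CDK1 in mitosis, read -0.13 and 0.03 in control arrays 1 and 2, and 0.26, -1.07 and 0.05 with siRNAs 1, 2 and 3. It came to 49.2% of the control, the smallest difference of this role, and was 2-fold below control array 2 but not control array 1. CCNB2 and CDC25B stood at -1.42 and -1.42 under siRNA 2.

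The kinases of spindle poles and centrosomes were lower by less as gene means, but AURKA and PLK4 averaged probe sets that differed. The 4 members had medians of 0.41, -0.84 and 0.15 under siRNAs 1, 2 and 3, and 1 was 2-fold below both control arrays under siRNA 2. That one was NEK2, which separates centrosomes, at -0.30 and 0.29 in control arrays 1 and 2, and 0.37, -1.84 and 0.07 with siRNAs 1, 2 and 3. PLK1, which acts from mitotic entry to cytokinesis, read 0.42 and 0.00 in control arrays 1 and 2, and 0.68, -0.76 and -0.20 with siRNAs 1, 2 and 3. Its siRNA 1 array was above both control arrays and its siRNA 2 array was lowest, at 51.2% of the control. AURKA, the kinase of spindle pole assembly, read -0.14 and 0.06 in control arrays 1 and 2, and 0.21, -0.68 and 0.19 with siRNAs 1, 2 and 3, and at -0.64 it was the member of this role closest to the control. PLK4, the kinase of centriole duplication, stood at -0.72, with control arrays 1.33 apart. Its probe sets 204886_at and 204887_s_at were at -1.38 and -1.78 under siRNA 2, and 211088_s_at at 0.99. For AURKA, 208079_s_at was at -1.17, 204092_s_at at -0.71 and 208080_at at -0.06. The smaller median of this role thus depends in part on the probe sets averaged.

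Checkpoint genes and the genes of anaphase were lower under siRNA 2 with 1 exception. The 9 members had medians of -0.07, -1.39 and -0.23 under siRNAs 1, 2 and 3, and 7 were 2-fold below both control arrays under siRNA 2. CDC20, which activates the APC/C and is held by the checkpoint, read 0.10 and -0.26 in control arrays 1 and 2, and 0.26, -1.95 and 0.00 with siRNAs 1, 2 and 3, and came to 27.2% of the control under siRNA 2. UBE2C, the ubiquitin-conjugating enzyme of the APC/C, read 0.17 and 0.22 in control arrays 1 and 2, and 0.00, -1.63 and -0.07 with siRNAs 1, 2 and 3. In both genes siRNA 2 stood far below the other 4 arrays, which lay within 0.6 of each other. BUB1, a checkpoint kinase at kinetochores, read 0.00 and 0.29 in control arrays 1 and 2, and 0.43, -1.16 and -0.31 with siRNAs 1, 2 and 3. The pseudokinase gene BUB1B stood at -1.76, the securin gene PTTG1 at -1.48, the separase gene ESPL1 at -1.39 and MAD2L1 at -1.19 under siRNA 2. The kinase gene TTK stood at -0.93 there, less than 2-fold.

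BUB3 was the exception. It encodes a WD repeat protein that carries BUB1 and BUB1B to kinetochores. As the mean of 5 probe sets it read -0.04 and 0.17 in control arrays 1 and 2, and -0.01, 0.39 and -0.18 with siRNAs 1, 2 and 3, so siRNA 2 was the highest array. Its partners BUB1 and BUB1B were at 40.4% and 29.4% of the control on the same array, and BUB3 at 125.5%. The height of BUB3 differed between probe sets. Under siRNA 2, 237245_at was at 0.88, and 209974_s_at and 201457_x_at were at 0.41 and 0.36. The probe sets 201456_s_at and 201458_s_at were near the control, at 0.05 and -0.07.

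Genes of the centromere and kinetochore were lower under siRNA 2 throughout. The 9 members had medians of 0.17, -1.36 and -0.09 under siRNAs 1, 2 and 3, and 8 were 2-fold below both control arrays under siRNA 2. CENPE, a kinesin that carries chromosomes towards the spindle equator, read 0.00 and 0.46 in control arrays 1 and 2, and -0.21, -1.50 and 0.28 with siRNAs 1, 2 and 3. CENPA, the histone H3 variant that marks centromeres, read 0.11 and 0.00 in control arrays 1 and 2, and -0.31, -1.52 and 0.04 with siRNAs 1, 2 and 3, and its siRNA 1 array was also below both control arrays. The 4 subunits of the NDC80 complex, which binds microtubules, stood at different depths under siRNA 2, at -1.23 for NDC80, -1.57 for NUF2, -1.36 for SPC24 and -0.87 for SPC25. SPC25 was the smallest difference of this role, at 0.00 and 0.10 in control arrays 1 and 2, and 0.14, -0.82 and -0.04 with siRNAs 1, 2 and 3. CENPF stood at -1.50, CENPU at -1.27 and CENPN at -1.19 under siRNA 2.

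The measured genes of the chromosomal passenger complex, which corrects faulty attachments and later directs cytokinesis, were all 2-fold below both control arrays under siRNA 2. The kinase gene AURKB read 0.49 and 0.00 in control arrays 1 and 2, and 0.07, -1.61 and -0.09 with siRNAs 1, 2 and 3. Its control arrays were 0.49 apart, and the siRNA 2 array was at 27.6% of their mean. BIRC5, which encodes survivin, read 0.07 and 0.15 in control arrays 1 and 2, and 0.07, -1.30 and 0.00 with siRNAs 1, 2 and 3 as a mean of 4 probe sets, which ran from -1.88 to -0.56 under siRNA 2. CDCA8, which encodes borealin, read 0.04 and -0.04 in control arrays 1 and 2, and 0.03, -1.38 and 0.00 with siRNAs 1, 2 and 3, with siRNAs 1 and 3 inside the range of the control arrays.

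The mitotic kinesins were lower under siRNA 2 by varied amounts, and most were slightly higher under siRNA 1. The 9 members had medians of 0.27, -1.24 and -0.31 under siRNAs 1, 2 and 3. Under siRNA 1, 8 of 9 were above both control arrays, where 32.2% of all genes were. Under siRNA 3, 7 of 9 were below both, where 33.9% of genes were. Under siRNA 2, 5 of 9 were 2-fold below both. KIF4A, a chromosome motor of the central spindle, read 0.37 and 0.00 in control arrays 1 and 2, and 0.45, -1.50 and -0.13 with siRNAs 1, 2 and 3. KIF2C, which takes microtubules apart at kinetochores, read 0.01 and 0.03 in control arrays 1 and 2, and 0.23, -1.59 and -0.02 with siRNAs 1, 2 and 3, with control arrays 0.02 apart. KIF20B, a motor of cytokinesis, was closest to the control, at 0.00 and 0.26 in control arrays 1 and 2, and 0.40, -0.65 and -0.15 with siRNAs 1, 2 and 3. KIF11, the motor that separates spindle poles, stood at -1.24 under siRNA 2, KIF14 at -1.48 and KIF15 at -1.31. KIF20A stood at -1.12, KIF18A at -0.99 and KIF23 at -0.82.

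Genes of spindle assembly and cytokinesis were the role in which siRNA 1 varied most over genes, with an SD of 0.45. The gap between the control arrays varied more in the same genes, with an SD of 0.55. The highest siRNA 1 difference of this role, 0.92, was that of ASPM, whose control arrays were 1.07 apart. The 9 members had medians of 0.30, -1.33 and -0.12 under siRNAs 1, 2 and 3, and 5 were 2-fold below both control arrays under siRNA 2. PRC1, which bundles microtubules of the central spindle, read 0.06 and 0.06 in control arrays 1 and 2, and -0.12, -1.86 and 0.00 with siRNAs 1, 2 and 3. The other 4 arrays lay within 0.2 of each other, and siRNA 2 came to 26.6% of the control. HMMR, a microtubule-binding protein of spindle poles, read -0.03 and 0.67 in control arrays 1 and 2, and -0.12, -1.39 and 0.43 with siRNAs 1, 2 and 3. ECT2, the exchange factor that sets up the contractile ring, read 0.00 and 0.25 in control arrays 1 and 2, and 0.85, -0.76 and -0.58 with siRNAs 1, 2 and 3, so siRNAs 2 and 3 were both low and siRNA 1 was high. TPX2, an activator of AURKA, stood at 0.69, -1.09 and -0.35 under siRNAs 1, 2 and 3. Under siRNA 2 ANLN stood at -1.55, DLGAP5 at -1.56, CEP55 at -1.33 and NUSAP1 at -1.26, and ASPM is described with its probe sets below.

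Genes of mitotic chromosome structure were lower under siRNA 2 in every case. The 7 members had medians of 0.13, -1.36 and -0.15 under siRNAs 1, 2 and 3, and 6 were 2-fold below both control arrays under siRNA 2. Of the condensin I subunits, NCAPH read 0.06 and 0.03 in control arrays 1 and 2, and 0.00, -1.72 and -0.15 with siRNAs 1, 2 and 3 and NCAPG read -0.08 and 0.05 in control arrays 1 and 2, and 0.24, -1.71 and 0.05 with siRNAs 1, 2 and 3. NCAPD2 stood at -1.36 under siRNA 2. The ATPase subunits SMC2 and SMC4, which both condensins share, stood at -0.96 and -1.16. As gene means these differences were smaller than those of the 3 subunits of condensin I alone. Over single probe sets SMC2 ran from -1.22 to -0.69 and SMC4 from -1.43 to -0.94. NCAPD2, read by 1 probe set, lay within the SMC4 range, so the order depends in part on the probe sets averaged. TOP2A, the topoisomerase that untangles sister chromatids, read 0.44 and 0.08 in control arrays 1 and 2, and 0.52, -1.15 and -0.32 with siRNAs 1, 2 and 3, as a mean of 3 probe sets that ran from -2.16 to -0.67 under siRNA 2. MKI67, which encodes the proliferation marker Ki-67, read 0.05 and 0.02 in control arrays 1 and 2, and 0.24, -0.998 and 0.29 with siRNAs 1, 2 and 3 as a mean of 4 probe sets. As that mean MKI67 was at 48.8% of the control under siRNA 2 and above both control arrays under siRNAs 1 and 3. Its probe sets split under siRNA 1. There 212021_s_at and 212022_s_at read 0.75 and 0.61, above both control arrays, and 212023_s_at and 212020_s_at read -0.29 and -0.13, below both. Under siRNA 3, 212020_s_at lay between the control arrays. All 4 were below both control arrays under siRNA 2.

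The transcription factor FOXM1, which drives many genes of G2 and M phase, was itself lower under siRNA 2. It read 0.09 and -0.20 in control arrays 1 and 2, and 0.11, -1.26 and 0.00 with siRNAs 1, 2 and 3, so siRNA 2 was at 43.3% of the control and siRNA 3 lay between the control arrays. MELK, a kinase of proliferating cells, read 0.09 and 0.00 in control arrays 1 and 2, and 0.15, -1.77 and -0.17 with siRNAs 1, 2 and 3. CDCA3, which serves in the breakdown of the mitosis inhibitor WEE1, stood at -1.13 under siRNA 2 and 0.33 under siRNA 3.

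Under all 3 siRNAs together, 8 members lay below both control arrays, or 13.6% of members, where 10.1% of all genes did. These were CDK1, BUB1B, UBE2C, BIRC5, KIF15, PRC1, DLGAP5 and NCAPH, and no member was above both control arrays under all 3, where 8.63% of genes were. In most of the 8 the siRNA 1 and 3 differences were small. For DLGAP5 they were -0.06 and -0.12, against -1.56 under siRNA 2. For KIF15, a kinesin that helps hold spindle poles apart, they were -0.56 and -0.31, against -1.31. siRNAs 1 and 3 leaned opposite ways by small amounts. Under siRNA 1, 36 members were above both control arrays and 14 below both, where 32.2% and 40% of genes were. Under siRNA 3, 13 members were above both and 33 below both, where 35.2% and 33.9% of genes were. No member was 2-fold above both control arrays under any siRNA, where 2.8%, 4.19% and 2.68% of genes were under siRNAs 1, 2 and 3.

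Single probe sets mostly had the direction of the gene means under siRNA 2. Of the 106 probe sets, 98 were below both control arrays under siRNA 2, where 38.7% of all probe sets with 1 symbol were. In 67 the difference was 2-fold or more against both, where 6% of those probe sets were. Of the 29 members with several probe sets, 25 had all of them below both control arrays. The other 4 were ASPM, AURKA, BUB3 and PLK4, named after their values were seen.

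ASPM, a spindle pole protein, had 3 probe sets of 2 kinds. The first, 219918_s_at, read -0.25 and 0.00 in control arrays 1 and 2, and 0.39, -1.72 and 0.11 with siRNAs 1, 2 and 3. The others, 239002_at and 232238_at, read 1.06 and 1.64 on control array 1 but -0.78 and 0.00 on control array 2, and siRNA 2 was not their lowest array. PLK4 had 2 probe sets that stood at -1.38 and -1.78 under siRNA 2, and 211088_s_at, which read -3.16 and 0.00 in control arrays 1 and 2, and 0.14, -0.59 and 0.43 with siRNAs 1, 2 and 3. Its value of -3.16 on control array 1 made most of the gap between the control arrays for this gene. AURKA had 208079_s_at at -1.17, 204092_s_at at -0.71 and 208080_at at -0.06 under siRNA 2. The small gene-level difference of AURKA thus averaged probe sets that differed among themselves. For BUB3 the 5 probe sets lay between -0.07 and 0.88 under siRNA 2, and none was below both control arrays.

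**Figure D3:**
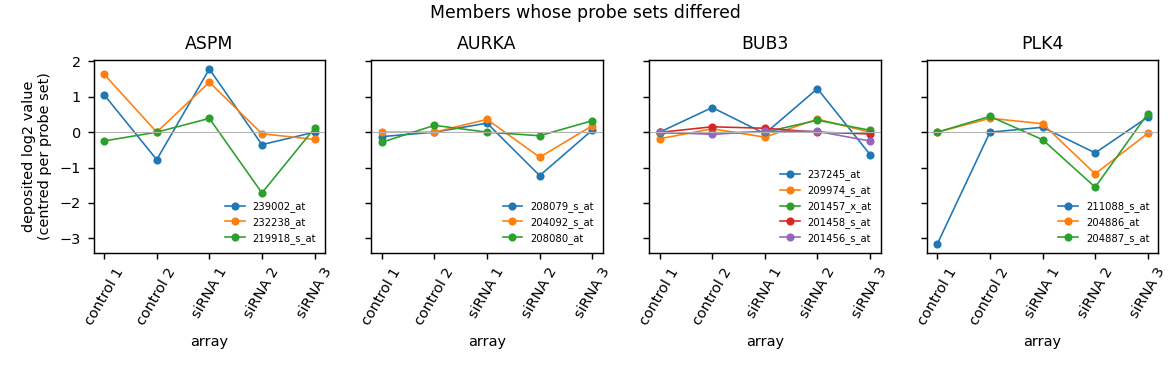
Deposited log2 values, centred per probe set, of each probe set of ASPM, AURKA, BUB3 and PLK4 (one line each) on the 2 control arrays and the arrays of siRNAs 1, 2 and 3. For ASPM, AURKA and PLK4 at least 1 probe set is lowest under siRNA 2 while another is not, as for 211088_s_at of PLK4, lowest on control array 1 at -3.16. None of the 5 probe sets of BUB3 lies below both control arrays under siRNA 2.

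Other genes of the same processes, from 5 lists of 122 genes of which 114 were measured, mostly had the same direction under siRNA 2, with smaller medians in each list. Below both control arrays were 98 of the 114 and above both were 5, where 37.1% and 38.1% of all genes were. At least 2-fold below both were 28, where 5.11% of genes were. In limma 0 of the 114 passed the threshold and 0 were at an unadjusted p under 0.05. Other kinetochore and centromere genes came nearest to the members, with a median of -0.97 under siRNA 2 over 29 genes, 11 of them 2-fold below both control arrays. In that list CENPH, an inner kinetochore subunit, read 0.05 and 0.36 in control arrays 1 and 2, and -0.03, -2.20 and 0.00 with siRNAs 1, 2 and 3. MIS18A, which licenses centromeres for new CENPA, stood at -2.12 under siRNA 2.

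Other spindle, centrosome and cytokinesis genes had a median of -0.75 under siRNA 2 over 31 genes, with 9 of them 2-fold below both control arrays. SPAG5, a spindle and kinetochore protein, stood at -1.72 and the minus-end kinesin KIFC1 at -1.70. Other mitotic regulators had a median of -0.66 over 23 genes, 4 of them 2-fold below both. SHCBP1 stood at -1.89 and DEPDC1 at -1.69. Cohesin and condensin II had a median of -0.62 over 15 genes, all of them below both control arrays and 2 of them 2-fold. The cohesin subunit SMC3 stood at -1.35 as a mean of 4 probe sets, of which 1556925_at was at -3.78 and the others between -0.83 and -0.17. NCAPH2 of condensin II stood at 0.66, -1.76 and 0.80 under siRNAs 1, 2 and 3, and its control arrays were 0.74 apart.

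The APC/C itself was nearest to the control. Its list had a median of -0.36 under siRNA 2 over 16 genes, with 10 below both control arrays, 3 above both and 2 that were 2-fold below both. The 2 widest were FBXO5, an APC/C inhibitor rather than a subunit, at -1.27, and the subunit ANAPC13 at -1.24. Its 2 probe sets stood at -2.40 and -0.08. ANAPC13 was as low under siRNA 3, at -1.32, where 215282_at was at -2.62 and 209001_s_at at -0.03. The APC/C partners among the members, CDC20 and UBE2C, stood at -1.88 and -1.83 on the same array.

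Genes of DNA replication and the G1/S transition were low under siRNA 2 too. Their median was -0.85 over 51 genes, with -0.14 under siRNA 1 and -0.05 under siRNA 3. Below both control arrays under siRNA 2 were 49, and 15 were 2-fold below both, where 37.1% and 5.11% of all genes were. The replicative helicase subunit gene MCM2 stood at -2.24 and the helicase cofactor gene CDC45 at -1.90. The share 2-fold below both control arrays was 15 of 51 in this list and 43 of 59 among the members, and the difference between the lists was not tested.

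**Figure D4:**
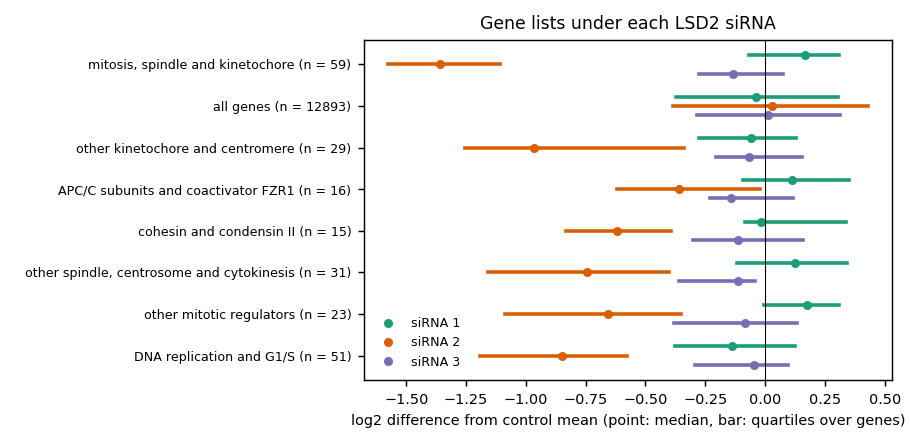
Median (point) and quartiles over genes (bar) of the log2 difference from the mean of the 2 control arrays, for each gene list and each LSD2 siRNA. Under siRNA 2 the medians run from -1.36 for the 59 mitosis, spindle and kinetochore genes to -0.36 for the APC/C list, with all genes at 0.03. Under siRNAs 1 and 3 the median of each list lies within 0.2 of 0, while quartiles reach beyond that.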

How the data were processed

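RNA of HepG2 cells was measured on 5 biotin-labelled expression arrays, 3 with LSD2 siRNA and 2 with GL3 siRNA, grouped by title. The deposited log2 values are centred per probe set, and the submitters' processing notes name MAS5. The log base, any scaling, the filter and the genome build are not given in the sources used here, so signal over background is unknown, and the number of arrays limits the precision. Of 30137 probe sets, 24151 had 1 symbol in the platform annotation, 1175 several, 4753 none and 58 were controls. The probe sets of a gene were averaged. The fit used limma 3.58.1 (lmFit, then eBayes) under R 4.3.3, with two-sided p-values over all 12893 genes with Benjamini-Hochberg adjustment at 0.05. It was first run on simulated data whose spread was scaled down so that the changes could be found. That run checked the code and cannot show what this design could detect. Figures and tables used matplotlib 3.10.9, pandas 2.3.3 and Python 3.11.15. Members and lists were chosen with earlier results of these data known. Named genes were KDM1B, 9 well-known members, in each of 9 roles the 2 lowest and the highest under siRNA 2, in each other list the 2 widest, and members below both control arrays under all 3 siRNAs. Other members are given by single values. Same-numbered arrays were not taken as pairs, because the second control array is a technical replicate of the first. Alternatives were quantile normalization, 1 probe set per gene, leaving out each array, separate control arrays, 2 blocks, a limit on the control gap and a 1.5-fold threshold.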

Additional observations from a re-analysis of the deposited data

How the results depend on the processing

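The count of 0 members called by limma, at the adjusted threshold and at an unadjusted p under 0.05, was the same under all 11 alternatives. The adjusted count could hardly change, since no gene passed in the main fit, which had 2 residual degrees of freedom. With the replicate block, in which siRNA 3 has a term of its own, the count was 0. The median of the members' mean differences was then -0.61, the same as without siRNA 3. Correlations of same-numbered deviations were 0.10 and -0.05. The median of -0.46 ranged from -0.80 to -0.01 when an array was left out, the latter without siRNA 2, and was -0.40 with the poly-A array set as a block. Under siRNA 2 the median of -1.36 was -1.15 after quantile normalization. The 43 members 2-fold below both control arrays became 30 there, 41 with 1 probe set per gene and 55 at 1.5-fold. The limit on the control gap left out 8 members, and 39 of those kept were 2-fold below both. Against control array 2 alone 46 members were 2-fold lower, and against control array 1 alone 49. The share of all genes is not given for these settings, so these counts cannot set the members apart from other genes. Mean differences of single genes over the 3 siRNAs were rerun only for KDM1B and the well-known members. Among these genes they turned above 0 without siRNA 2 for CCNB1 (0.21, from -0.46 to 0.21 when each array was left out), PLK1 (-0.69 to 0.030), FOXM1 (-0.58 to 0.11) and MKI67 (-0.42 to 0.22). The list is not complete for all members. CDC20, NEK2 and NCAPG, for example, were not rerun and had differences above 0 under both siRNAs 1 and 3. AURKA, at -0.06, was 0.036 after quantile normalization, 0.12 with 1 probe set per gene and 0.23 without siRNA 2, with a range from -0.21 to 0.23 when an array was left out. The cause was not tested. Of 216 alternative siRNA 2 differences of the 44 named genes, 0 changed sign, but 38 moved by more than the spread between the control arrays, 20 after quantile normalization and 18 with 1 probe set per gene. The latter moved 7 genes by over 1.5 times: KDM1B from -1.73 to -0.52, AURKA from -0.64 to -0.06, BIRC5 from -1.41 to -0.56, TOP2A from -1.41 to -2.16, BUB3 from 0.33 to 0.88, ANAPC13 from -1.24 to -2.40 and SMC3 from -1.35 to -3.78.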

Other observations

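Markers of other cell types are given here as values only. Of the hepatocyte list, 7 of 8 genes were measured, with medians of -0.41, 0.65 and 0.61 under siRNAs 1, 2 and 3. Their differences ran from -2.02 to 0.06, from -0.33 to 3.16 and from 0.22 to 2.69. Under siRNA 2, 3 of the 7 were 2-fold above both control arrays, where 4.19% of all genes were, and under siRNA 3 also 3, where 2.68% of genes were. Under siRNA 1, 2 were 2-fold below both, where 4.03% of genes were. Fibroblast markers, 5 of 7 measured, went both ways, with medians of 1.10, -0.32 and -1.48 and ranges from -2.07 to 3.32, from -2.54 to 1.27 and from -2.27 to 1.51. Leukocyte markers, 4 of 6 measured, also went both ways, with medians of -0.05, 0.08 and -0.13 and ranges from -1.66 to 1.03, from -0.64 to 2.45 and from -0.61 to 1.36. Of the endothelial list only PECAM1 was measured, at -1.07 under siRNA 2 and -0.01 and 0.10 under siRNAs 1 and 3. Levels are absent from centred values, so whether a marker was at or near 0 could not be seen, and their part in the result was not tested.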
